A study of Mus musculus with 6 samples.

Results

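Long intergenic noncoding RNAs (lincRNAs) are transcripts that are mostly spliced and polyadenylated like messenger RNAs, lie outside protein-coding genes and are not translated into a known protein. They were examined here in NIH3T3 cells, an immortalised line of mouse embryonic fibroblasts labelled as wild type. The group comprised every row of the deposited tables whose transcript type was lincRNA and nothing else and whose count averaged at least 50 over the 6 libraries, which gave 178 of 55401 rows. In all, 5622 rows carried the lincRNA type alone at any count, so most annotated lincRNAs lay under that level. A further 38 rows reached it but listed lincRNA beside other transcript types, the growth-arrest transcript Gas5 and the snoRNA host Snhg1 among them, and were not included. Members were chosen by their mean count over both groups and by type alone. The members nearest to the limit on the inside were Gm44275, with a mean of 50.2 counts, and Gm13056, with 50.8. The rows just outside it were B230303O12Rik, with 48.8 counts, and Gm37855, with 48.5.

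The 6 libraries were made from polyadenylated RNA, 3 from cells labelled with the DMSO vehicle and 3 from cells labelled with IPRN. By the series' own description the work concerned cancer-associated fibroblasts, the activated fibroblasts of tumours, and the line had been pushed toward that state with hydrogen peroxide and TGF-β before IPRN was given. The series title names angelicin, a plant furocoumarin, and the labels do not spell IPRN out. They give neither dose nor time, and leave unstated if hydrogen peroxide and TGF-β were also added to the DMSO cells, so the contrast is between the labels DMSO and IPRN as they stand. Since nothing in the labels says that the 3 libraries of a group came from separate cultures, p-values measure the spread between libraries, which may be technical.

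The tables hold 60320282 to 78629444 counts per library, and between 176 and 178 of the members had at least 1 count in each. The 10 fibroblast markers examined, Col1a1 and vimentin among them, were summed in CPM, that is, counts adjusted for library size. The sum was 24348 to 25463 CPM in DMSO and 26526 to 29044 CPM in IPRN, without overlap. Fn1 was the only marker called, higher in IPRN, and none was at 0 in any library. Markers of cells that the cultures should lack were low, and they varied between libraries. The summed level of 24 hepatocyte genes was 35.7 CPM in DMSO1 and 37.2 CPM in IPRN3, where 17 and 16 of them were at 0, against 83.0 to 178.6 CPM in the other libraries, where none was. The 10 macrophage and leukocyte genes summed to 148.5 CPM in IPRN3, mostly from the lysozyme gene Lyz2, and to between 13.2 and 25.8 CPM elsewhere. Within that list Lyz2 and the receptor gene Csf1r were higher in every IPRN library than in any DMSO library (Csf1r at 0.75 to 1.91 CPM against 2.76 to 7.78 CPM), and neither was called. Albumin (Alb), the defining hepatocyte gene, had 0 counts in DMSO1 and 12 in IPRN3, against 899 to 3051 elsewhere. Epithelial, endothelial and neural or germ cell markers summed to at most 2.67, 3.53 and 6.69 CPM in any library. The endothelial sum was 3.26 to 3.53 CPM in DMSO and 1.55 to 2.61 CPM in IPRN, without overlap. Only 2 members, 5031425E22Rik and Gm49602, were lowest in both DMSO1 and IPRN3 with a gap of more than 1.5-fold to the other libraries, and 0 were highest in both. Calls are therefore also given without these libraries; the part of these transcripts in other results was not tested.

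LincRNAs work mainly as RNA. Some build or decorate nuclear bodies, as Neat1 does for paraspeckles and Malat1 does for splicing speckles. Some bind proteins or microRNAs in the cytoplasm and lower their free amount, and others are hosts whose introns or exons are cut into small nucleolar RNAs (snoRNAs) or microRNAs. Many are weakly expressed, and many loci are known only by a clone or prediction name. That was the case here, where 142 of the 178 members carried a Gm or Rik name.

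The protocol in the labels has no step that keeps the strand, so a read cannot be assigned to the lincRNA or to a transcript on the opposite strand. Of the 178 members, 76 shared an exonic stretch with another gene model, 54 with a model on the opposite strand and 32 with a model on the same strand, and 102 shared none. A transcription start within 2000 bases of that of a coding gene on the other strand was found for 40 members, and 9 lay inside a coding gene. Sequence copies added to this uncertainty. Cut into words of 50 bases, 56 members shared no word with any other annotated transcript, 35 shared at least 20% and 15 shared at least 50%. Exonic length ran from 384 to 93147 bases, with a median of 2430, and 38 members consisted of 1 exon block. A snoRNA, or a small Cajal body RNA (scaRNA), lay within 9 members and a microRNA within 14.

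The 178 members together held between 0.194% and 0.286% of a library's count. In the DMSO libraries the share was 0.194%, 0.207% and 0.195%, and in the IPRN libraries it was 0.208%, 0.221% and 0.286%. In bulk libraries such as these, fewer cells of a kind and less RNA per cell cannot be told apart. The highest share, that of IPRN3, fell to 0.207% without a single member, Rps18-ps4, which is described below. Without it the share was 0.199% ± 0.0070 (SD, n = 3) in DMSO and 0.212% ± 0.0077 (SD, n = 3) in IPRN. The counts were concentrated in few members, with 34.2% of them in 3 lincRNAs, and 64 members averaged under 100 counts while 28 reached 1000.

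With edgeR's quasi-likelihood test, adjusted over all genes by Benjamini-Hochberg, 5 of the 176 members that passed the low-count filter were called at an adjusted p under 0.05, 4 of them higher in IPRN and 1 lower. That is 2.84% of the members tested, where 5.47% of all 17159 genes tested were called (2.46% higher and 3.01% lower). The median log2 fold change of the members was -0.021, with 82 above 0 and 94 below it, against 0.0016 for all genes. From the 10th to the 90th percentile their log2 fold changes ran from -0.54 to 0.44. A change of at least 2-fold in either direction, called or not, was fitted for 11 members (6.25%) and for 6.30% of all genes. The 3 DMSO and 3 IPRN values did not overlap for 37 members, 18 higher and 19 lower in IPRN. That is 21.0% of the members, where 29.6% of all genes did so (14.9% higher and 14.7% lower). At an unadjusted p under 0.05 there were 32 members, or 18.2%, beside 22.0% of all genes.

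The number of members called differed between fits, as did that of all genes. DESeq2 called 14 of the 144 members given an adjusted p (14.8% of all genes given one), and limma-voom called 5 (5.93%). For the other 34 members DESeq2 gave no adjusted p and so could make no call. In edgeR the number was 7 when only genes with a mean of 50 counts were tested (8.66% of all genes), and 8 without IPRN1 (5.86%). It was 1 without DMSO3 (1.04%), and it was 2 without DMSO1 (0.739%), DMSO2 (0.808%), IPRN2 (1.32%) or IPRN3 (1.46%). It was 0 without DMSO1 and IPRN3 together (0.3% of all genes), where 29 members had an unadjusted p under 0.05.

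The members were counted less deeply than other genes and varied more between replicates. Their median mean count was 154, against 997 over all genes tested, and the median standard error of a member's log2 fold change was 0.29, against 0.14. At 50 to 100 counts that error was 0.39 for members and 0.40 for protein-coding rows. It was 0.25 against 0.22 at 100 to 500 counts, and 0.12 against 0.089 from 500 counts. In each range the members' median count was the lower one. Among members averaging 50 to 100 counts, edgeR's test called 0 of 63 (7 at an unadjusted p under 0.05, 1 by DESeq2 and 0 by limma-voom), and it called 1 of 183 protein-coding rows in that range. DESeq2 gave no adjusted p for some of these 63 members, Lncpint and A930029G22Rik among them. Between 100 and 500 counts edgeR's test called 2 of 74 members and 19 of 448 protein-coding rows (4.24%). From 500 counts upward it called 3 of 39 members (7.69%) and 186 of 1570 protein-coding rows (11.8%). The other noncoding types at a mean of at least 50 counts gave few calls too, with 2 of 210 antisense rows and 1 of 61 rows of the processed transcript type. Whether these shares differ between types was not tested.

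**Figure D1:**
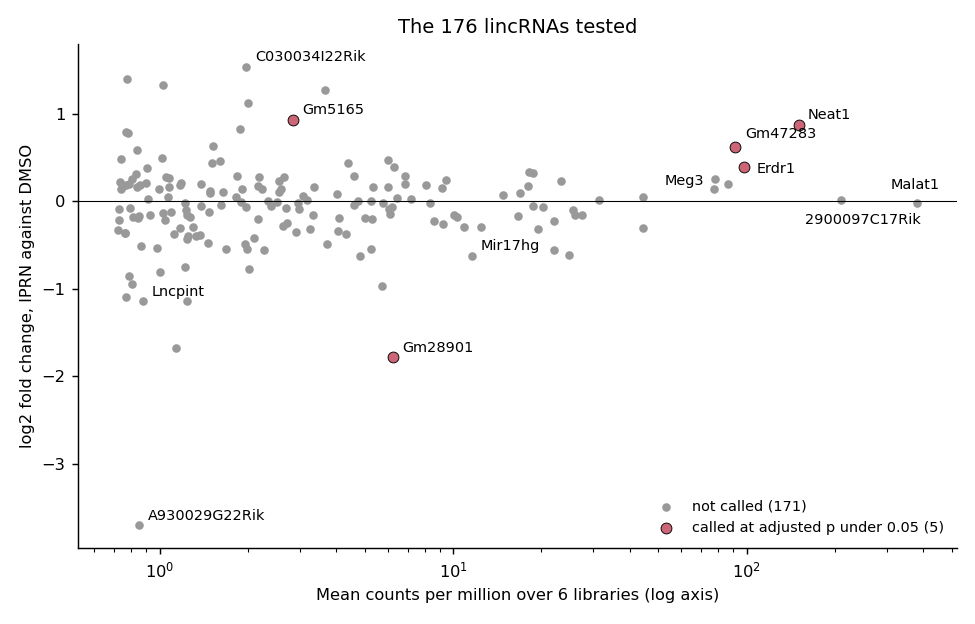
Fold change against abundance for the 176 lincRNAs tested. Each point is a member, with its mean CPM over the 6 libraries on a log axis and its log2 fold change (IPRN against DMSO) on the other axis, and red points are the 5 called. Most points lie near 0, the spread widens toward low CPM, and the 2 points of largest change, A930029G22Rik at -3.70 and Gm28901 at -1.78, both belong to loci that share exons with another model.

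Neat1 was the lincRNA with the smallest adjusted p. It is the RNA scaffold of paraspeckles, nuclear bodies that hold a set of RNA-binding proteins and some edited RNAs, and its transcription is known to increase under many kinds of stress. The gene (ENSMUSG00000092274) is annotated as 1 unspliced block of 20771 bases on the minus strand, chr19:5824708-5845478 in GRCm38, and its neighbour on the same chromosome is Malat1. The first 120 bases of the transcript, at chr19:5845359-5845478, are shown in RNA orientation as the end that both the short polyadenylated form and the long form have in common:
Neat1: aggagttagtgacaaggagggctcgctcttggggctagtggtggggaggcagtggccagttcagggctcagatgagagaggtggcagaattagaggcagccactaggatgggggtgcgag
Neat1 stood at 106.7, 109.4 and 102.5 CPM in the DMSO libraries and at 167.9, 204.3 and 211.6 CPM in the IPRN libraries. Every IPRN value lay above every DMSO value, and the DMSO values were closer to each other than the IPRN values were. The log2 fold change was 0.87 ± 0.090 (SE), an increase of 1.83-fold, with an adjusted p of 0.00517 by edgeR. Per length, in the deposited FPKM values, it rose from 4.59 ± 0.16 to 8.44 ± 1.14 (SD, n = 3), which was rank 29 among the members on that scale in DMSO. The call held in all 6 fits that leave out 1 library, with adjusted p from 0.000534 to 0.0424, and was lost without DMSO1 and IPRN3 together (log2 fold change 0.81, adjusted p = 0.111). Only 1.33% of its words occur elsewhere, and no gene model on the opposite strand shares its exon, although short models on its own strand cover 384 of its bases. A count over the whole block does not separate the short form from the long form, which lacks a poly(A) tail and is captured less by oligo(dT).

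The genes for paraspeckle proteins did not move with it past the threshold. Nono, a core paraspeckle protein, gave a log2 fold change of -0.11 (adjusted p = 0.441), and its partner Sfpq gave -0.02 (0.792). Pspc1 gave 0.03 (0.964). Rbm14, another protein of these bodies, stood at 71.3 to 80.1 CPM in DMSO and 86.2 to 106.8 CPM in IPRN, with a log2 fold change of 0.38 and an adjusted p of 0.0687. A list of 33 genes for proteins that bind or process long noncoding RNA included paraspeckle proteins, the PRC2 complex, the nuclear exosome and Integrator. Of these, edgeR's test called 2 higher and 1 lower. It called 5.47% of all genes tested and 9.36% of rows typed protein-coding alone with a mean of at least 50 counts. Whether the list differs from those shares was not tested. The helicase gene Upf1, needed for nonsense-mediated decay, rose by 0.45 (adjusted p = 0.00577). Ints1, a subunit of the Integrator complex that cleaves nascent transcripts, rose by 0.32 (0.0308). Mtrex, the helicase that feeds nuclear RNA to the exosome, fell by 0.31 (0.0195).

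Malat1 and Norad, the most abundant lincRNAs, did not show such a rise. Malat1 (ENSMUSG00000092341, chr19:5795690-5802672, minus strand) is retained in nuclear speckles, where splicing factors gather. It stood at 384.0, 398.7 and 371.7 CPM in DMSO and at 394.3, 461.4 and 282.5 CPM in IPRN. IPRN2 held the highest value and IPRN3 the lowest, so the groups overlapped, and the log2 fold change was -0.02 ± 0.16 (SE). Neat1 and Malat1 are neighbours, and the difference between their changes was not tested.

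Norad, listed as 2900097C17Rik (ENSMUSG00000102869, chr2:156388065-156392979, minus strand), is a cytoplasmic RNA known for binding the Pumilio proteins, which recognise the letters TGTANATA and shorten the life of messenger RNAs that carry them. Its annotated transcript of 4915 bases holds that motif 11 times on its own strand, the most of any member. Only 48 of the 178 members hold it at all in their longest transcript, and the next count was 9, in Gm7292, which has 77.5% of its words in common with Norad. A 60-base window with a pair of these motifs in capitals, chr2:156390484-156390543 on the minus strand, reads:
Norad: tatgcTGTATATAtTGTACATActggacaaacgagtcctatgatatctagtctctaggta
Norad stood at 206.3, 222.8 and 196.1 CPM in DMSO and at 177.7, 207.7 and 245.3 CPM in IPRN. The highest and the lowest value both came from IPRN libraries, and the log2 fold change was 0.01 ± 0.12 (SE). Of its words, 39.5% also occur in Gm7292, and the sum of both rows gave a log2 fold change of -0.04 (adjusted p = 0.847).

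Oip5os1, the mouse Cyrano transcript (ENSMUSG00000085438, chr2:119594297-119607502, plus strand), is known for a site of unusually long pairing with the microRNA miR-7, through which that microRNA is degraded. The longest annotated Oip5os1 transcript, of 8300 bases, contains the 7 letters complementary to the seed (bases 2 to 8) of miR-7 at 2 places. At one of them a run of 13 further letters pairs with the 3′ part of the microRNA, chr2:119602136-119602161 on the plus strand. The microRNA (RefSeq, GRCm38.p6) is written with its seed in capitals and the site with the matching letters in capitals, both 5′ to 3′:
mmu-miR-7a-5p: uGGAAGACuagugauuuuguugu
Oip5os1: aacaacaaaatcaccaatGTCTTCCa
Oip5os1 stood at 78.9, 84.6 and 78.1 CPM in DMSO and at 86.0, 91.8 and 98.7 CPM in IPRN. All 3 IPRN values were above the DMSO values by a small margin, with a log2 fold change of 0.19 ± 0.067 (SE) that did not pass the test (adjusted p = 0.147). Of the cytoplasmic and decoy list, only these 2 lincRNAs were members, and edgeR's test called 0 of them (1 at an unadjusted p under 0.05 and 0 by DESeq2).

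**Figure D2:**
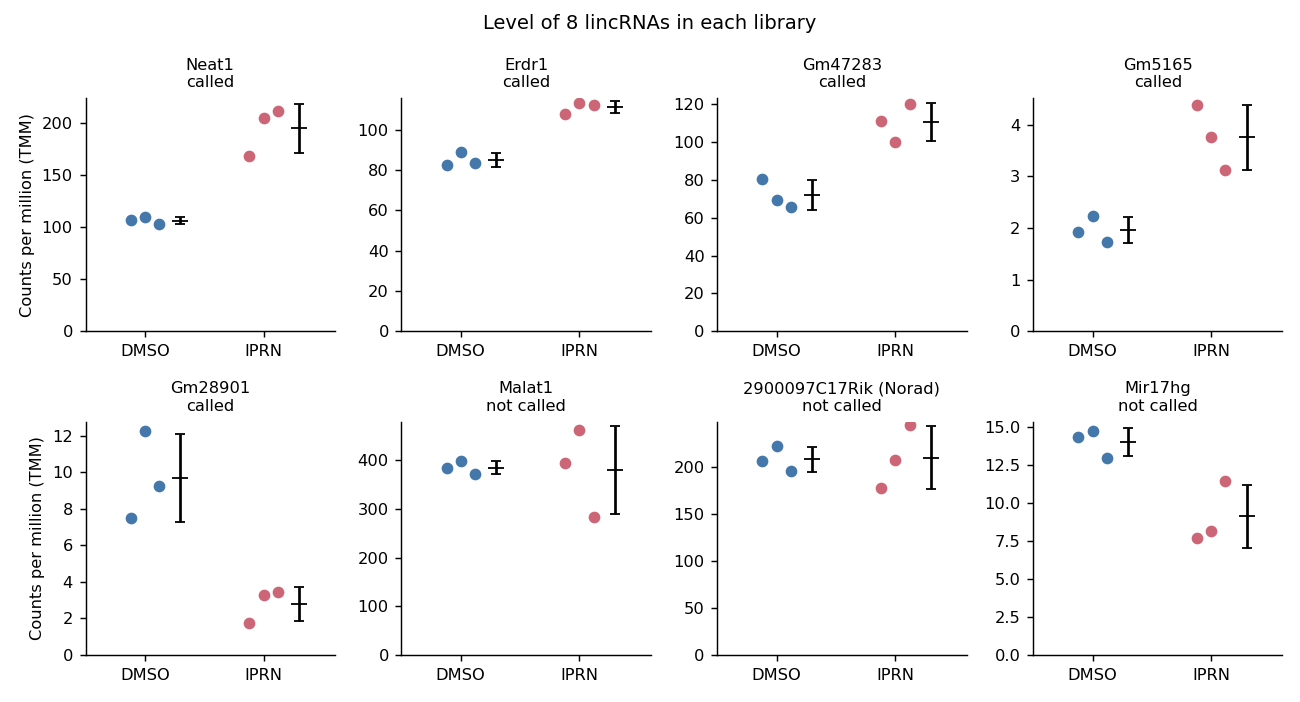
Level of 8 lincRNAs in each library. Points are the TMM-scaled CPM of the 3 DMSO (blue) and 3 IPRN (red) libraries on axes that start at 0, and the black mark is the mean with its SD. In the 5 called members, Neat1, Erdr1, Gm47283, Gm5165 and Gm28901, no IPRN point reaches the DMSO range, while those of Malat1 and Norad lie on both sides of it; the points of Mir17hg are also separate although it was not called.

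Erdr1 and Gm47283, the next calls, are copies of each other at the ends of the sex chromosomes. Erdr1 encodes a small secreted stress-related protein, and GENCODE M21 types both rows as protein-coding, so neither is a lincRNA in that annotation. Erdr1 (ENSMUSG00000095562, chrX:170009659-170019281, plus strand) stood at 82.2, 88.7 and 83.2 CPM in DMSO and at 107.8, 113.3 and 112.3 CPM in IPRN, a log2 fold change of 0.39 ± 0.052 (SE, adjusted p = 0.0128). Gm47283 (ENSMUSG00000096768, chrY:90784738-90816464, plus strand) stood at 80.8, 69.2 and 65.7 CPM in DMSO and at 111.5, 99.97 and 120.1 CPM in IPRN, a log2 fold change of 0.62 ± 0.100 (SE, adjusted p = 0.0220). In both rows every IPRN value was above every DMSO value. Since 59.7% of the words of Erdr1 and 40.5% of those of Gm47283 are the same 482 words, how the reads were divided between them is uncertain, and the sum of both rows rose by 0.50 ± 0.056 (SE, adjusted p = 0.00676). Erdr1 lost its call without DMSO1 (adjusted p = 0.0740), DMSO3 (0.0673), IPRN2 (0.0518) or IPRN3 (0.0515), and without DMSO1 and IPRN3 together (0.208). Gm47283 lost its call without DMSO2 (0.109), DMSO3 (0.0849) or IPRN3 (0.0645), and without DMSO1 and IPRN3 together (0.107).

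Gm5165 (ENSMUSG00000116802, chr17:17234872-17266063, plus strand) is a lincRNA of 4 exon blocks with no described function, and shares no exon with another model. It was low throughout, at 1.91, 2.24 and 1.73 CPM in DMSO and 4.38, 3.77 and 3.12 CPM in IPRN. The lowest IPRN value exceeded the highest DMSO value, with a log2 fold change of 0.94 ± 0.20 (SE, adjusted p = 0.0468). That p is close to the threshold, and the call was lost in each of the 6 fits that leave out 1 library: without DMSO1 (0.159), DMSO2 (0.122), DMSO3 (0.147), IPRN1 (0.0860), IPRN2 (0.125) or IPRN3 (0.0683). Its nearest coding gene, the zinc-finger gene Zfp97, lies 88041 bases away and had a log2 fold change of 0.80 ± 0.53 (SE, adjusted p = 0.450), and 5.23% of the words of Gm5165 are also in Zfp97.

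Gm28901 (ENSMUSG00000100454, chr1:97024516-97025565, minus strand) was the only member called lower. It stood at 7.49, 12.2 and 9.27 CPM in DMSO and at 1.74, 3.26 and 3.43 CPM in IPRN, a log2 fold change of -1.78 ± 0.30 (SE, adjusted p = 0.0249). The highest IPRN value was under the lowest DMSO value. Its 474 exonic bases fall in 2 exons, and the whole of the first, 406 bases, lies within the processed pseudogene Gm6430 on the opposite strand. The last 150 bases of the spliced RNA, chr1:97024516-97025241 on the minus strand with the intron removed, show that only its final exon lies outside Gm6430. Capitals mark 82 bases inside the Gm6430 exon and lower case marks the 68 bases outside it:
Gm28901: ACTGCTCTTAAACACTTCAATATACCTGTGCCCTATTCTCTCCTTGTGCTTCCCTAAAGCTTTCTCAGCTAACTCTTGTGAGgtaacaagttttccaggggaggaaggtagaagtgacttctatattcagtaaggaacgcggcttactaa
The Gm6430 row held 4376, 1197 and 4444 counts in DMSO and 4859, 304 and 293 in IPRN, so it was high in IPRN1 and low in DMSO2 as well. It exceeded the Gm28901 count in every library, and 84.2% of the words of Gm28901 also occur in Gm6430 (88.5% in any other gene). Summed, both rows gave -1.04 ± 0.89 (SE, adjusted p = 0.581) on the log2 scale. The call on Gm28901 was lost without DMSO1 (0.0669), DMSO2 (0.104), DMSO3 (0.0851), IPRN2 (0.0710) or IPRN3 (0.0584), and without DMSO1 and IPRN3 together (0.150). Without strand, the reads of the first exon cannot be told apart between the 2 models.

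**Figure D3:**
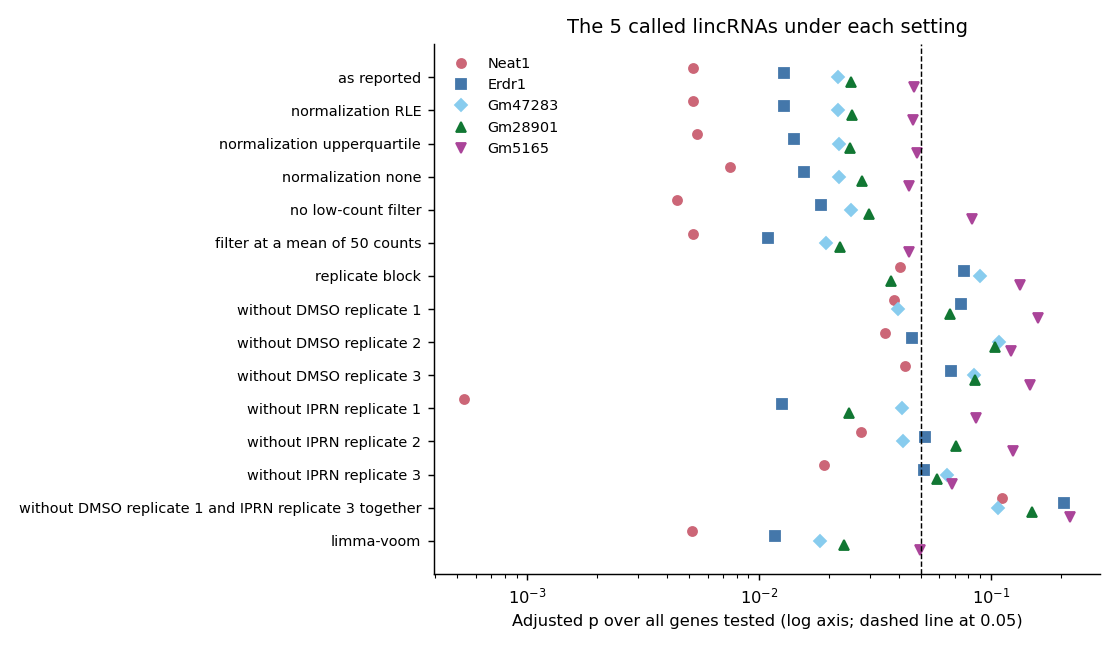
Adjusted p of the 5 called lincRNAs in each fit. Each symbol is the edgeR or limma-voom adjusted p of one lincRNA on a log axis, the rows are the fit as reported and 14 alternatives, and the dashed line is the threshold of 0.05. Neat1 stays left of the line except without DMSO1 and IPRN3 together, at 0.111, while Gm5165 lies right of it whenever a library is left out.

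Some of the other members that share exons with a model on the opposite strand are given here beside that model. Rps18-ps4 (ENSMUSG00000097346, chr13:97751112-97760965, plus strand), a locus that contains a processed copy of the ribosomal protein gene Rps18, had 0 counts in 5 libraries and 49855 in IPRN3. Rps18-ps6, on the opposite strand inside it, had 47943 to 61665 counts in those 5 libraries and 0 in IPRN3. The sum was 774 to 813 CPM in every library, a ratio of 1.05 between the highest and the lowest, with an adjusted p of 0.725. Rps18-ps4 was thus 1 of the 2 members left out of the test, since too few libraries reached the filter. Its entry among the lincRNAs rests on IPRN3 alone.

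Gm47204 shares 98.5% of its words with C030014I23Rik, which surrounds it on the other strand. Gm47204 had 0 counts in DMSO1 and IPRN2 and 91 to 182 elsewhere, and C030014I23Rik was highest in exactly those 2 libraries, with 291 and 297 counts. Their sum varied by a ratio of 1.52 over the libraries and gave a log2 fold change of -0.14 (adjusted p = 0.752).

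A930029G22Rik and C030034I22Rik, which share 733 exonic bases on opposite strands of chromosome 17, had the largest fitted fall and the largest fitted rise of all members tested. A930029G22Rik had 56, 131 and 157 counts in DMSO and 0, 13 and 12 in IPRN, a log2 fold change of -3.70 ± 0.95 (SE, adjusted p = 0.0737). C030034I22Rik had 69, 74 and 68 counts in DMSO and 92, 242 and 275 in IPRN, a log2 fold change of 1.54 ± 0.43 (SE, adjusted p = 0.0929). Neither passed the test, and the groups did not overlap in either row. Without IPRN1 both passed it (adjusted p = 0.0270 and 0.0152), and DESeq2 called C030034I22Rik (0.00778) and gave no adjusted p for A930029G22Rik. Their sum ran from 1.29 CPM in IPRN1 to 4.46 CPM in IPRN3, a ratio of 3.45. The sum had a log2 fold change of 0.24 ± 0.43 (SE, adjusted p = 0.819). Whether counts moved between these models was not tested.

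**Figure D4:**
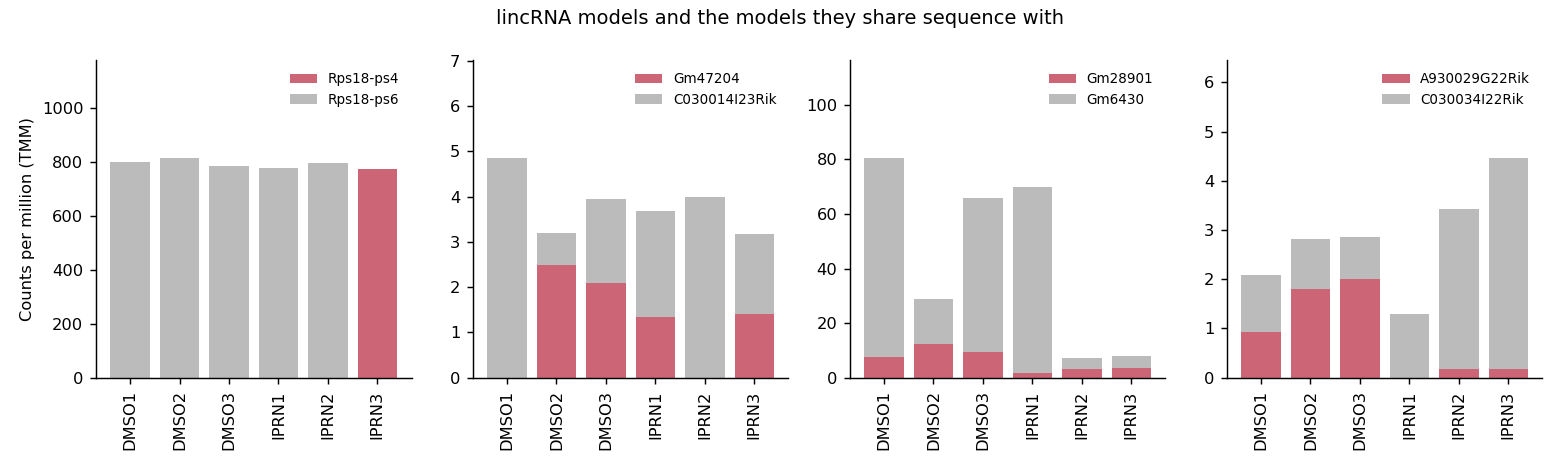
Levels of 4 lincRNAs (red) stacked on the models they share sequence with (grey). Bars are TMM-scaled CPM in each of the 6 libraries and start at 0. In the first panel the red bar appears in IPRN3 alone while the height stays between 774 and 813 CPM; in the third the grey part, Gm6430, makes most of the height in DMSO1, DMSO3 and IPRN1.

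Mir155hg, the host of the inflammatory microRNA miR-155, was the other untested member. It had 167, 6 and 6 counts in DMSO and 2, 152 and 3 in IPRN, so its place among the members came from DMSO1 and IPRN2. In all, 63 members differed by more than 2-fold between replicates of the same group. A further view of the threshold is the number of members that averaged at least 50 counts in only 1 group, which was 21, with 11 in DMSO and 10 in IPRN. Among those tested, the largest fold changes were in A930029G22Rik, described above, 4933440M02Rik and 1700096K18Rik. 4933440M02Rik stood at 0.55, 2.36 and 2.28 CPM in DMSO and 0.43, 0.91 and 0.28 CPM in IPRN (log2 fold change -1.67, adjusted p = 0.200). 1700096K18Rik stood at 0.28, 0.62 and 0.37 CPM in DMSO and 1.26, 1.05 and 1.07 CPM in IPRN (1.40, adjusted p = 0.0908).

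A microRNA lay within 14 members, and the list of known microRNA hosts covered only some of them. That list gave 0 calls among 4 members tested by edgeR, with 3 at an unadjusted p under 0.05 and 1 called by DESeq2. That one was Mir17hg (ENSMUSG00000089726, chr14:115042879-115046727, plus strand), the host of the miR-17-92 cluster, which is known as a growth-promoting target of Myc. Its 6 mature microRNAs carry 4 different seeds, shown in capitals (RefSeq, GRCm38.p6), with one seed common to miR-17 and miR-20a and another common to the miR-19 pair:
mmu-miR-17-5p: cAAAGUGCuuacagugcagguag
mmu-miR-20a-5p: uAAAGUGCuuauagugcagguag
mmu-miR-18a-5p: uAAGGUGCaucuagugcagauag
mmu-miR-19a-3p: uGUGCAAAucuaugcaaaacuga
mmu-miR-19b-3p: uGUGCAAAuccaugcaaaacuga
mmu-miR-92a-3p: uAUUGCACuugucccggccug
The host stood at 14.3, 14.8 and 13.0 CPM in DMSO and at 7.69, 8.18 and 11.5 CPM in IPRN. The groups did not overlap, and IPRN3 was the IPRN library nearest to DMSO. The log2 fold change was -0.62 ± 0.16 (SE) with an adjusted p of 0.0810 by edgeR, 0.00934 by DESeq2 and, without IPRN3, a log2 fold change of -0.82 and an adjusted p of 0.0332 by edgeR. The libraries measure the spliced or unspliced host RNA, not the mature microRNAs.

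Gm49890, which was singled out after its values were seen, contains the hairpin of miR-31, a microRNA studied in fibroblasts and tumours. It lies at chr4:88909855-88938521 on the minus strand, and its mature microRNA has another seed than the cluster above:
mmu-miR-31-5p: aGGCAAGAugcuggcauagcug
Gm49890 stood at 27.8, 25.9 and 25.6 CPM in DMSO and at 22.0, 15.9 and 15.8 CPM in IPRN, with no overlap between groups. The log2 fold change was -0.56 ± 0.14 (SE), which did not pass edgeR's test (adjusted p = 0.0727). It passed with DESeq2 (adjusted p = 0.00426) and in edgeR without IPRN1 (-0.74, adjusted p = 0.00999), and in edgeR without any one of the other libraries the adjusted p was 0.164 to 0.211. Among hosts that are not members, Mir22hg passed it, with 33.3 to 36.6 CPM in DMSO and 23.9 to 26.9 CPM in IPRN (log2 fold change -0.46, adjusted p = 0.0257). Ftx, a host on the X chromosome near Xist, gave -0.25 (0.222). The imprinted transcripts H19, Meg3 and Mirg each contain a microRNA, and H19 and Mirg are on the host list. They gave positive values and no call in edgeR's test (2 of 3 at an unadjusted p under 0.05, 0 by DESeq2). H19, a growth-restraining RNA made from the maternal allele, was at 5.04 ± 0.53 and 7.01 ± 2.31 CPM (mean ± SD, n = 3, DMSO and IPRN), with a log2 fold change of 0.47 and an adjusted p of 0.320. Meg3 was at 71.2 ± 3.94 and 84.9 ± 11.4 CPM (0.25, adjusted p = 0.200), and Mirg, from the same imprinted region on chromosome 12, was at 3.73 ± 0.16 and 5.05 ± 0.83 CPM (0.44, adjusted p = 0.166).

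The snoRNA hosts carry small guide RNAs in their introns, most of them for ribosomal RNA modification, and their spliced RNAs are cleared by nonsense-mediated decay in many cases. A snoRNA, or in Snhg10 the scaRNA Scarna13, lay within 9 members, and 7 of these were on the list of known hosts. Those 7 gave 0 calls (0 at an unadjusted p under 0.05 and 0 by DESeq2, which gave Snhg10 no adjusted p). Their log2 fold changes were -0.29 for Epb41l4aos, -0.18 for Snhg10, -0.16 for Snhg6, -0.15 for Snhg15, -0.02 for Snhg20, 0.10 for Snhg18 and 0.33 for Snhg12. Snhg15 was the only one of these hosts whose groups did not overlap, at 28.8, 28.3 and 29.6 CPM in DMSO and 25.2, 26.5 and 26.2 CPM in IPRN. Its adjusted p was 0.249. The snoRNA sequences inside these rows are short, and the libraries do not measure them as mature snoRNAs.

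Of the lincRNAs known from p53 and growth control, 0 of 6 members were called (1 at an unadjusted p under 0.05, 0 by DESeq2). That 1, Lncpint, had no adjusted p in DESeq2, nor had Lncenc1. Trp53cor1, the p53 target upstream of the cell-cycle inhibitor gene Cdkn1a, stood at 1.02 ± 0.57 CPM in DMSO and 1.14 ± 0.47 CPM in IPRN (mean ± SD, n = 3). Of its words, 38.4% also occur in AC167363.1, a model on the opposite strand that shares its exons, so its reads are not certain to be its own. Lncpint, another p53 target, stood at 1.17, 1.59 and 0.87 CPM in DMSO and 0.67, 0.67 and 0.30 CPM in IPRN, with a log2 fold change of -1.14 ± 0.44 (SE, adjusted p = 0.186). Its groups did not overlap, but each value rests on few reads. Pvt1, the neighbour of Myc, had -0.18 (0.495), and Lockd, transcribed next to the cell-cycle inhibitor gene Cdkn1b, had 0.00 (0.995). Morrbid, which restrains the pro-apoptotic gene Bcl2l11 in myeloid cells, was at 20.6 ± 1.01 and 19.8 ± 1.40 CPM, and Lncenc1 gave -0.52 (0.495).

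The immune list gave 0 calls among 3 members tested (2 at an unadjusted p under 0.05, 0 by DESeq2). Of these 2, Lncpint had no adjusted p in DESeq2. Ptgs2os2 (ENSMUSG00000097754, chr1:150159043-150164948, minus strand) lies 50816 bases from Ptgs2, the gene for cyclooxygenase-2. It stood at 18.7, 23.2 and 22.7 CPM in DMSO and at 15.6, 18.0 and 18.2 CPM in IPRN, a log2 fold change of -0.32 ± 0.12 (SE, adjusted p = 0.167). The IPRN values were all lower, with IPRN3 less than 1 CPM under DMSO1. Of the developmental list, Bvht, a heart lineage RNA, gave -0.20 (0.829) and Meg3 is given above (0 of 2 called by edgeR, 1 at an unadjusted p under 0.05, 0 by DESeq2). Jpx, an activator of Xist, gave -0.39 (0.617) and completes the nuclear and X-inactivation list, in which edgeR called 1 of 4 members, Neat1.

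Per length, in the deposited FPKM values, the order of the members differed from the order by count. The highest in DMSO was Gm10076 at 73.0 ± 8.74 FPKM (SD, n = 3), and it and Wincr1 were added to the named genes after their values were seen. Gm10076 is a short row of which 69.9% of the words occur in other transcripts, most in the ribosomal protein gene Rpl41. Malat1 at 49.5 ± 1.85 and Erdr1 at 48.2 ± 2.08 followed and differed by less than their spread. Norad stood at 38.1 ± 2.54, Epb41l4aos at 28.5 ± 3.07 and Wincr1 at 22.5 ± 1.74 FPKM, while Gm49890 at 21.8 ± 0.99 and Snhg6 at 21.6 ± 1.19 could not be separated from Wincr1 or from each other. In IPRN the corresponding values were 73.7 ± 8.94 for Gm10076, 48.9 ± 11.5 for Malat1, 63.4 ± 2.63 for Erdr1, 38.6 ± 6.78 for Norad and 14.8 ± 2.70 FPKM for Gm49890.

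Because many lincRNAs act on, or are transcribed with, the gene beside them, each member was set beside the nearest protein-coding gene model by gene body. For 142 members both were tested, with 136 distinct coding genes, of which 16 (11.8%) were called by edgeR, 3 higher and 13 lower, beside the 5.47% of all genes given above and 9.36% of the 2201 rows typed protein-coding alone with a mean of at least 50 counts. In 0 pairs were both called (3 pairs at an unadjusted p under 0.05 in both, 0 pairs by DESeq2). Only 3 called members had a tested neighbour in edgeR, so few such pairs were possible. Across the 142 pairs Pearson's r between the log2 fold changes was 0.073, a description over loci that share the same 6 libraries. Of the 18 members beside a called coding gene, 10 had a log2 fold change of the same sign.

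Among these pairs, D730003I15Rik lies 6415 bases from Atf3, an early stress-response transcription factor, on the opposite strand. Atf3 fell from 12.7 ± 0.45 to 3.16 ± 0.17 CPM (SD, n = 3), a log2 fold change of -2.01 with an adjusted p of 0.000194. D730003I15Rik stood at 1.10, 0.87 and 1.31 CPM in DMSO and 1.11, 1.35 and 1.33 CPM in IPRN (0.21, adjusted p = 0.732). Ptgs2 fell from 1073 ± 51.6 to 342 ± 10.5 CPM (log2 fold change -1.65, adjusted p = 4.6e-05), against -0.32 for Ptgs2os2. Ccn1, a matrix protein gene induced by growth factors, fell by 0.63 on the log2 scale (adjusted p = 0.00508), and Gm17501, 331 bases from it on the other strand, had -0.16 (0.492). Spry2, an inhibitor of receptor tyrosine kinase signalling, fell by 1.06 (adjusted p = 0.00105) at a distance of 209736 bases from Gm10076, which had 0.01 (0.978). These 4 pairs were picked for the size of the coding gene's change after the values were seen.

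**Figure D5:**
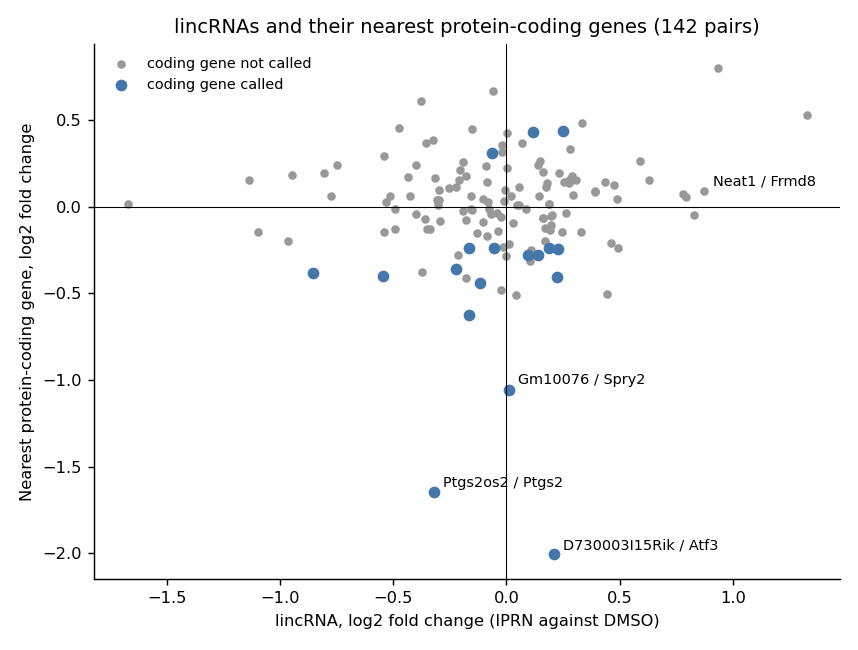
Change of each lincRNA against the change of its nearest protein-coding gene. Each of the 142 points is a lincRNA with a tested neighbour, log2 fold changes (IPRN against DMSO) are on both axes, and blue marks coding genes called at an adjusted p under 0.05. The lowest blue points, Atf3 at -2.01 and Ptgs2 at -1.65, sit at lincRNA values of 0.21 and -0.32.

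The coding neighbours of the called lincRNAs were not called or were too low to test. Frmd8, 4224 bases from Neat1, stood at 83.8 ± 1.30 CPM in DMSO and 89.5 ± 7.46 CPM in IPRN (log2 fold change 0.09, adjusted p = 0.502). Mid1, 3923 bases from Erdr1, had 0.09 (0.829). Gm21748, 22405 bases from Gm47283, averaged under 1 CPM in both groups and was not tested, and Slco6c1, 33473 bases from Gm28901, had 0 counts in every library. Zfp97 is given above beside Gm5165.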

How the data were processed

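Polyadenylated RNA of 3 DMSO and 3 IPRN libraries of NIH3T3 cells was sequenced. Per the file headers, each library's deposited table lists counts and FPKM by gene; the counts are whole numbers that the authors did not scale. Reads were trimmed with cutadapt 1.9, per the submitters' processing notes; the aligner, counter and build: not given in the sources used here. All 178 members were found by identifier in GENCODE M21 (GRCm38), 159 at the same position; positions printed are those of the files, and exons and transcript sequences those of M21.

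Counts were analysed with edgeR 4.0.16 in R 4.3.3: filterByExpr with a minimum count of 10, TMM factors, glmQLFit and glmQLFTest with group as the only term, two-sided, Benjamini-Hochberg over 17159 genes, and calls at an adjusted p under 0.05. CPM are TMM-scaled. Before TMM scaling, 3 counts correspond to 0.0382 to 0.0497 CPM. FPKM served only to compare levels per length. Pairs of replicates differed by more than sampling noise (chi-square divided by its degrees of freedom, 34.0 to 97.6), the pairs with IPRN1 the most.

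Named are the members called, the 8 of highest mean CPM, those on lists of known lincRNAs and the rows next to the count limit. Also named are the 3 largest changes among members reaching 50 counts in 1 group only, and the coding genes nearest to called members. Other exceptions are marked, but Gm47204, C030014I23Rik and C030034I22Rik also fall outside this rule. They share exons with another member and were picked with their counts known. The members and the lists were chosen with earlier results of these data known. Alternatives were other normalizations and filters, DESeq2 1.42.0, limma-voom (limma 3.58.1), a replicate block, leaving out libraries, and other member limits.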

Additional observations from a re-analysis of the deposited data

How the results depend on the processing

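The count of 5 called members stayed within 1.5 times under the RLE, upper-quartile and no-factor normalizations, limma-voom, both other filters (4 without a filter, 7 with a mean of 50 counts for every gene) and member limits of 20, 100 and 200 counts. It was 14 with DESeq2 (7 higher and 7 lower of 144 members given an adjusted p; 14.8% of all genes), 0 without DMSO1 and IPRN3 together (29 at an unadjusted p under 0.05; 0.3% of all genes called), and from 1 to 8 with 1 library left out: 1 without DMSO3, 8 without IPRN1 and 2 in each of the other 4 fits. It was 3 among members sharing no exon, 3 among those typed lincRNA in GENCODE M21 and 2 among those sharing under 20% of their words; these last 2 limits, and the fits without Rps18-ps4, were chosen after seeing the data. With the replicate block it was 2, Neat1 and Gm28901, with 0.6% of all genes called. Deviations from the group mean correlated at -0.042, 0.0046 and -0.049 between libraries of the same replicate number. Libraries of unlike number gave -0.035 to 0.074, with the highest value between DMSO1 and IPRN3, the libraries low in hepatocyte genes. This gave no sign of pairing by replicate number but cannot exclude it with so few libraries, and the labels do not say. Whether DMSO1 and IPRN3 share a batch was not tested.

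The median log2 fold change of -0.021 was -0.047 with the replicate block, -0.048 with limma-voom, -0.060 at a limit of 20 counts, -0.046 among members sharing under 20% of their words, and between -0.050 and -0.0029 with 1 library left out. Without Malat1 and Neat1 the mean share of the library count was 0.150% in DMSO and 0.181% in IPRN, where IPRN1 and IPRN2 had 0.153% and 0.154% and IPRN3, which alone holds Rps18-ps4 counts, had 0.236%. Over 510 values of 34 named members under the alternatives, 27 values of 8 members that were not called changed sign (Norad, Bvht, Gm13056, Lockd, Malat1, Snhg20, Snhg6 and Trp53cor1, with log2 fold changes of at most 0.20 in size as reported, adjusted p of at least 0.375 where the sign changed), 27 of the called members' values lost the call, and 3 of the others' gained it (Mir17hg by DESeq2 and without IPRN3, A930029G22Rik without IPRN1). By start site instead of gene body, 0 pairs were again both called, where again only 3 called members had a tested neighbour. Leaving out loci that overlap ribosomal RNA repeats was not run, since 0 of the 4 symbols listed were matched. Depth limits the weakest members: at 50 to 100 counts the median standard error was 0.39, and 0 of 7 fitted changes of at least 2-fold passed edgeR's test.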
